A study of Homo sapiens with 12 samples.

Results

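HAGH, NUDT3 and TBC1D4 were followed together with GLO1, NUDT4 and TBC1D1, which are the pathway partner of the first and the closest paralogs of the other two. HAGH, NUDT3 and TBC1D4 were chosen because their values were lower with siGALNT1 than with siControl in both cell lines, so the siGALNT1 differences of these 3 genes are given as a description and were not tested. The 3 relatives were added for contrast. The 6 genes, of 20503 genes named on the array, had 8 probes among the 50599 probes on the array besides controls, and all 8 were well above background on all 12 arrays.

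Both cell lines, HA22T and PLC5, derive from human hepatocellular carcinoma and were grown in DMEM with 10% FBS. Each line was transfected for 48 hours with 10 nM of a non-targeting siRNA (siControl) or of a SMART pool of siRNAs against GALNT1 (siGALNT1), which encodes an enzyme that starts O-glycosylation by adding GalNAc to proteins. RNA of 3 replicates per line and siRNA was hybridised to one-colour Agilent arrays, which gave 4 groups of 3. The labels number the replicates and do not say whether they were separate transfections, so p-values measure only the spread between these arrays, which may be technical. The siRNAs of the pool act as a mixture, and an effect of GALNT1 loss and an effect of the pool on other transcripts cannot be told apart in this design.

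HAGH encodes glyoxalase II, which hydrolyses the glutathione thioester that glyoxalase I, encoded by GLO1, makes from the reactive glycolysis by-product methylglyoxal, and so returns D-lactate and glutathione. NUDT3 and NUDT4 encode nudix hydrolases that remove phosphate from diphosphoinositol polyphosphates, and NUDT3 also acts on the caps of some mRNAs. TBC1D4, also known as AS160, and TBC1D1 encode GTPase-activating proteins for Rab proteins that hold glucose transporter vesicles inside cells until insulin or energy-stress kinases phosphorylate them.

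Promoter sequences are shown for 2 of the genes chosen for lower values and for the partner or paralog of each, so that genes that were lower together can be read beside a relative. Each runs 5′ to 3′ on the gene's strand from 250 bases before a RefSeq transcript start to 50 bases after it, in GRCh38.p14, and capitals mark CCAAT on either strand (so ATTGG where the match lies on the other strand).
HAGH, chr16:1826776-1827075, minus strand: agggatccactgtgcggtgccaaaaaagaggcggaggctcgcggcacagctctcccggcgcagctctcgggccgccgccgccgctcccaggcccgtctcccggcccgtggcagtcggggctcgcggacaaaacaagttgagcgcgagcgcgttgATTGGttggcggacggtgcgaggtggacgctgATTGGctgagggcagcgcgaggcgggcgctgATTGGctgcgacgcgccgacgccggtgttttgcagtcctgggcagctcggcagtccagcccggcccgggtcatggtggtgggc
GLO1, chr6:38703096-38703395, minus strand: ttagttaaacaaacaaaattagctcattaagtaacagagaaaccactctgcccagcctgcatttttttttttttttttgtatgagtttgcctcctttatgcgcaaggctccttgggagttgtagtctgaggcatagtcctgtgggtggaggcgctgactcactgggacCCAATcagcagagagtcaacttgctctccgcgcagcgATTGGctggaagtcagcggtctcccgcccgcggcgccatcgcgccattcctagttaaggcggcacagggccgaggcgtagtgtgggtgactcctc
NUDT3, chr6:34392620-34392919, minus strand: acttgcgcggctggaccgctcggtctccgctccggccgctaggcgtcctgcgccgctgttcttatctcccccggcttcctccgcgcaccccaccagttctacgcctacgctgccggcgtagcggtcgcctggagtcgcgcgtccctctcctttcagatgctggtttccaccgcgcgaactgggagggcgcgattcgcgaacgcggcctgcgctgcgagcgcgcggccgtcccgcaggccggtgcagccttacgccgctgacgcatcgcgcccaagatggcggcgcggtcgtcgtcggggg
NUDT4, chr12:93377675-93377974, plus strand: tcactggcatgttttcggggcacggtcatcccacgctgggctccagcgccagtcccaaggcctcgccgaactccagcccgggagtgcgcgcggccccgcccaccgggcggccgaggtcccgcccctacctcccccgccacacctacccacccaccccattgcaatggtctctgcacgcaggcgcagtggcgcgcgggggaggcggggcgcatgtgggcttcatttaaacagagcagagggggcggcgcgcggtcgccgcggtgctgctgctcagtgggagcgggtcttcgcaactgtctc

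The HAGH window held CCAAT at 3 places, with first bases 96, 64 and 33 bases before the start, and the GLO1 window held it at 2 places. The NUDT3 and NUDT4 windows held none, and 34.61% of 35116 RefSeq windows of this length held at least 1. The other motifs searched on both strands were GGGCGG (the GC box), TGANTCA (the AP-1 motif), CACGTG (an E-box), TGACNNNGC (the core of the antioxidant response element) and TATAAA (the TATA box). NUDT4 had 4 matches to GGGCGG, which 44.95% of all windows held, and 1 to TGACNNNGC (13.35%). GLO1 had 1 match to GGGCGG and 1 to TGANTCA (7.71%). NUDT3 had no match to any motif searched. The NUDT3 window was 72.0% G and C with 50 CpG, HAGH 71.0% with 38, NUDT4 71.3% with 32 and GLO1 52.7% with 15. The median over all windows was 58.7% and 14 CpG. HAGH and NUDT3, both lower with siGALNT1, thus shared none of these motifs, and nothing follows from a missing match about a factor. HAGH and NUDT4 have a second annotated start each, whose windows are not shown, and the arrays do not tell which start was used. The second HAGH window had 1 match to CACGTG, with its first base 19 bases before the start, and none to CCAAT. Of all windows, 7.26% held CACGTG. The second NUDT4 window had 2 matches to GGGCGG and none to TGACNNNGC.

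All values are log2 processed signals relative to the 75th percentile of the array, which is set at 0, and a lower value means less signal. Levels of different probes are not compared, since probes differ in brightness. The brightest probe of a gene is given first where there is more than 1. Fewer cells and less RNA per cell cannot be told apart in bulk RNA.

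Each array had 36679 to 48873 of its 58717 spots well above background, and replicates correlated at 0.968 to 0.988. The targeted gene was low in every siGALNT1 array: the brighter GALNT1 probe averaged 0.97 ± 0.30 (SD, n = 3) with siControl and -4.13 ± 1.26 with siGALNT1 in HA22T, and 0.62 ± 0.25 and -3.10 ± 1.04 in PLC5. In HA22T with siGALNT1 that probe was above background on 2 of 3 arrays and the other GALNT1 probe on 1 of 3, so the GALNT1 differences there include signals at background. Of 10 hepatocyte markers, 7 were above background on all 3 siControl arrays of HA22T and 10 on those of PLC5. TTR, a plasma carrier protein made by hepatocytes, was above background on 1 of the 3 siControl arrays and on no siGALNT1 array of HA22T, and ALB, AFP and APOB were each above background on 1 of its 3 siGALNT1 arrays. Of 7 measured markers of other cell types, 5 were above background on all 3 siControl arrays in each line, PTPRC among them at 5.05 in HA22T and 5.10 in PLC5, and COL1A2 and ACTA2 were not above background on any PLC5 array. No marker passed an adjusted p of 0.05 between siRNAs. AFP met the study's criterion in HA22T, the only hepatocyte marker to do so, at -1.20 (SE 0.40), where it was above background on 2 of the 3 siControl arrays, and its PLC5 difference was -0.79; its part in the siGALNT1 values of the members was not tested, and the part of cell identity in the line differences below was not tested. The 6 HA22T arrays and the first pair of PLC5 arrays shared the first slide, and the remaining 4 PLC5 arrays were on the second.

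HAGH, glyoxalase II, had the largest differences of the 6 genes in both lines. In HA22T the siControl arrays read -0.37, -0.26 and -0.11 and the siGALNT1 arrays -2.57, -2.26 and -1.75. In PLC5 the siControl arrays read 0.65, 0.33 and 0.39 and the siGALNT1 arrays -0.89, -0.89 and -1.51. The siRNA groups did not overlap in either line, as was so in the lower direction for 4.6% of probes in HA22T and 1.78% in PLC5, and every siGALNT1 array of PLC5 was also below every siControl array of HA22T. The mean difference was -1.95 (SE 0.28) in HA22T, a 3.86-fold lower signal, and -1.55 (SE 0.28) in PLC5, a 2.94-fold lower signal. By size of the difference HAGH stood 5th from the most negative among 36327 counted probes in HA22T and 104th among 38070 in PLC5. In PLC5 the same-numbered arrays differed by -1.54 on the first slide and by -1.22 and -1.90 on the other. HAGH was chosen on these values, so they do not test its difference.

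GLO1, glyoxalase I, acts one step before HAGH and was measured with a spread of similar size. Its HA22T values were 0.60, 0.45 and 0.15 with siControl and 0.29, 0.48 and 0.50 with siGALNT1. Its PLC5 values were 0.11, 0.33 and 0.35 with siControl and 0.48, 0.61 and 0.37 with siGALNT1. The groups overlapped in HA22T, while in PLC5 each siGALNT1 array was above each siControl array by a narrow margin. The difference was 0.02 (95% interval -0.46 to 0.51, adjusted p = 1) in HA22T and 0.22 (95% interval -0.26 to 0.71, adjusted p = 1) in PLC5, and exact two-sided permutation tests of 3 arrays against 3 gave p = 0.8 and p = 0.1, the latter the smallest that this design allows. Groups did not overlap, in either direction, for 4.11% of probes in PLC5.

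NUDT3, the diphosphoinositol polyphosphate hydrolase with a further role at mRNA caps, was lower with siGALNT1 by a little less than HAGH in each line. Its HA22T values were -1.55, -1.99 and -1.97 with siControl and -2.93, -3.71 and -3.17 with siGALNT1. Its PLC5 values were -1.57, -1.85 and -1.78 with siControl and -2.78, -2.50 and -3.03 with siGALNT1. The siRNA groups did not overlap in either line, as was so in the lower direction for 4.6% of probes in HA22T and 1.78% in PLC5. NUDT3 was chosen on these values, so they do not test its difference. The siGALNT1 groups of the lines overlapped each other, as did the siControl groups. The mean difference was -1.44 (SE 0.27) in HA22T, a 2.71-fold lower signal, and -1.04 (SE 0.27) in PLC5, a 2.05-fold lower signal. In PLC5 the pair on the first slide differed by -1.21 and the other pairs by -0.65 and -1.25. NUDT3 is annotated as overlapping a read-through gene with its neighbour RPS10, and whether the probe takes in read-through transcripts was not tested.

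NUDT4, the paralog with the same kind of activity, had 2 probes, and neither passed the threshold. Its brighter probe read -1.08, -1.86 and -1.64 with siControl and -1.75, -2.16 and -1.79 with siGALNT1 in HA22T. In PLC5 it read -1.93, -1.90 and -1.69 with siControl and -2.12, -1.50 and -2.04 with siGALNT1. The siRNA groups overlapped in both lines, and each siGALNT1 array of HA22T was below the siControl array of the same number. The difference was -0.37 (95% interval -0.99 to 0.24) in HA22T and -0.04 (95% interval -0.66 to 0.57) in PLC5, each with an adjusted p = 1. The dimmer NUDT4 probe differed by -0.21 in HA22T and 0.07 in PLC5. NUDT4B, a near-identical copy of NUDT4, may share its signal, so the NUDT4 values are uncertain in that respect.

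TBC1D4, the Rab GTPase-activating protein, had a probe that was bright in HA22T and less so in PLC5. In HA22T the siControl arrays read 1.38, 1.59 and 1.62 and the siGALNT1 arrays 0.05, 0.08 and -0.14. In PLC5 the siControl arrays read -0.18, -0.06 and -0.14 and the siGALNT1 arrays -0.53, -0.64 and -1.27. The siRNA groups did not overlap in either line, as was so in the lower direction for 4.6% of probes in HA22T and 1.78% in PLC5. The siGALNT1 arrays of HA22T read about as the siControl arrays of PLC5, with overlapping ranges. The mean difference was -1.53 (SE 0.24) in HA22T, a 2.90-fold lower signal, and -0.69 (SE 0.24) in PLC5, a 1.61-fold lower signal. The PLC5 difference was -0.46 without siGALNT1 replicate 3, the lowest of its group. The difference was 0.85 (SE 0.35) smaller in PLC5 than in HA22T, against 0.39 (SE 0.40) for HAGH and 0.40 (SE 0.39) for NUDT3, values that describe the contrast the genes were chosen on.

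TBC1D1, the paralog of TBC1D4 with the same Rab targets, did not pass the threshold with either of its 2 probes. The brighter probe read 0.22, 0.17 and 0.26 with siControl and -0.19, 0.68 and 0.21 with siGALNT1 in HA22T. In PLC5 it read -0.30, -0.07 and -0.24 with siControl and 0.24, 0.29 and -0.14 with siGALNT1. The groups overlapped in both lines, and the siGALNT1 arrays of HA22T were spread more widely than its siControl arrays. The difference was 0.01 (95% interval -0.56 to 0.59) in HA22T and 0.33 (95% interval -0.24 to 0.91) in PLC5, each with an adjusted p = 1. The dimmer TBC1D1 probe differed by -0.22 in HA22T and 0.21 in PLC5, so the 2 probes had opposite signs in HA22T, both small against their intervals. The siGALNT1 difference of the 3 relatives was also compared between the lines (PLC5 minus HA22T): it was 0.20 (95% interval -0.49 to 0.89) for GLO1, 0.33 (-0.54 to 1.20) for NUDT4 and 0.32 (-0.49 to 1.13) for TBC1D1, each with an adjusted p = 0.988. Of all 39100 probes, 0% passed in that comparison, with 952 (2.43%) at an unadjusted p under 0.05.

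**Figure D1:**
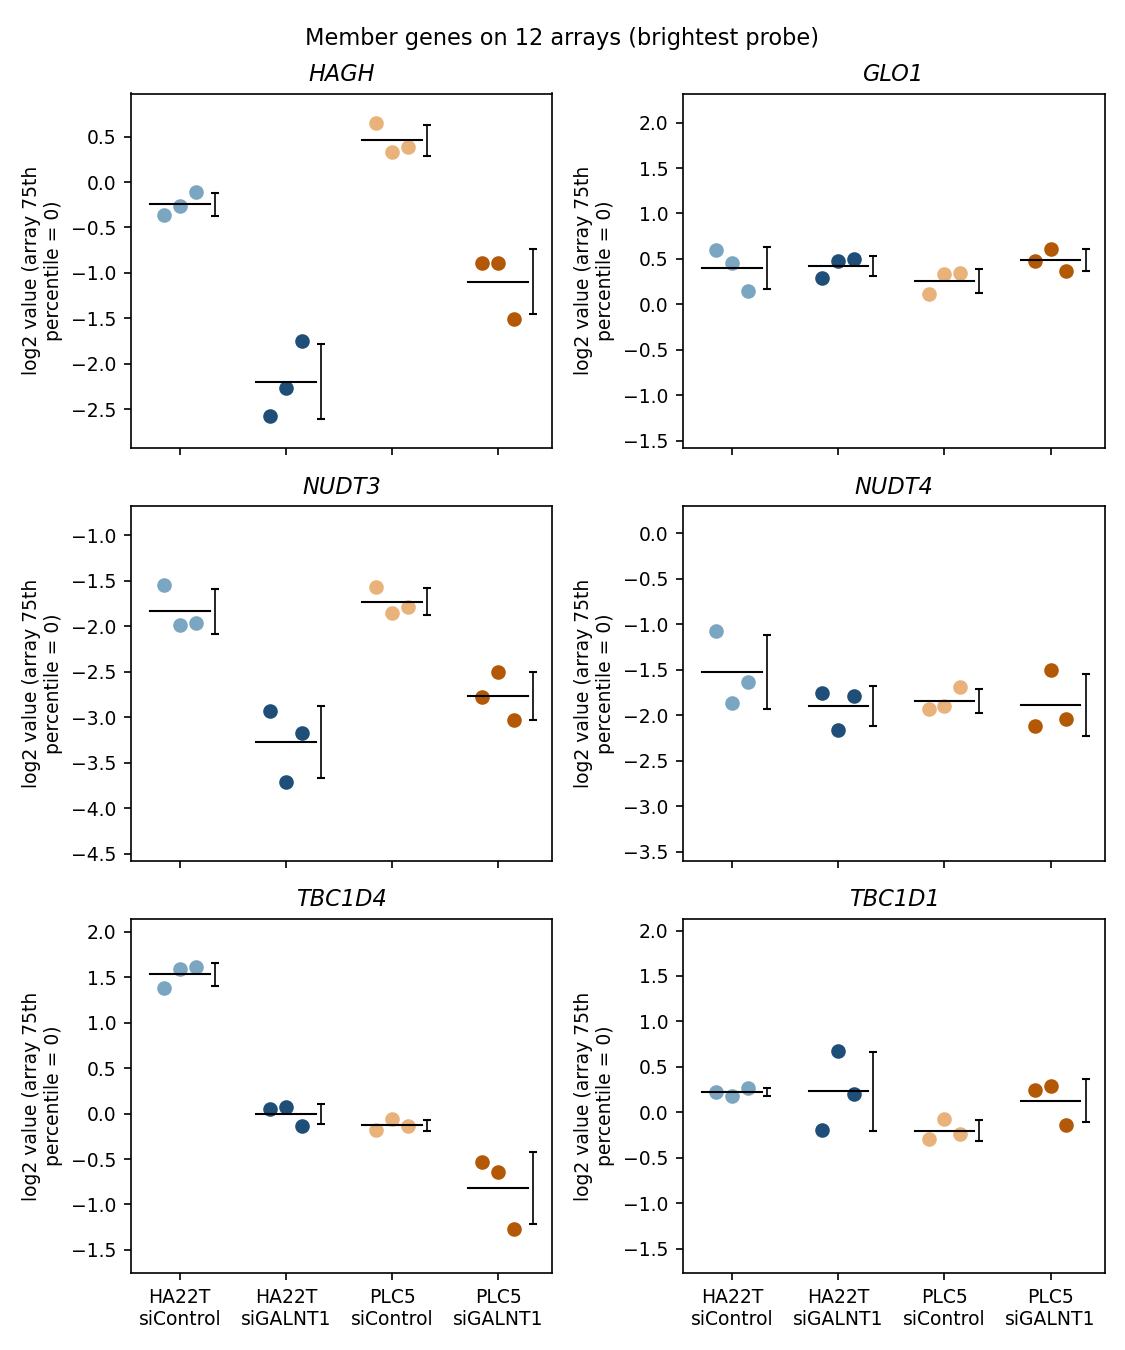
Log2 value of the brightest probe of each member gene (vertical axis, array 75th percentile = 0) in the 4 groups; each point is 1 array, the line is the mean and the bar beside it ± 1 SD (n = 3), and every panel spans the same number of log2 units. HAGH, NUDT3 and TBC1D4, chosen for lower siGALNT1 values, have separate siControl and siGALNT1 points in both lines. The points of NUDT4 and TBC1D1 overlap in both lines. Those of GLO1 overlap in HA22T and are narrowly separate in PLC5, with siGALNT1 higher.

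**Figure D2:**
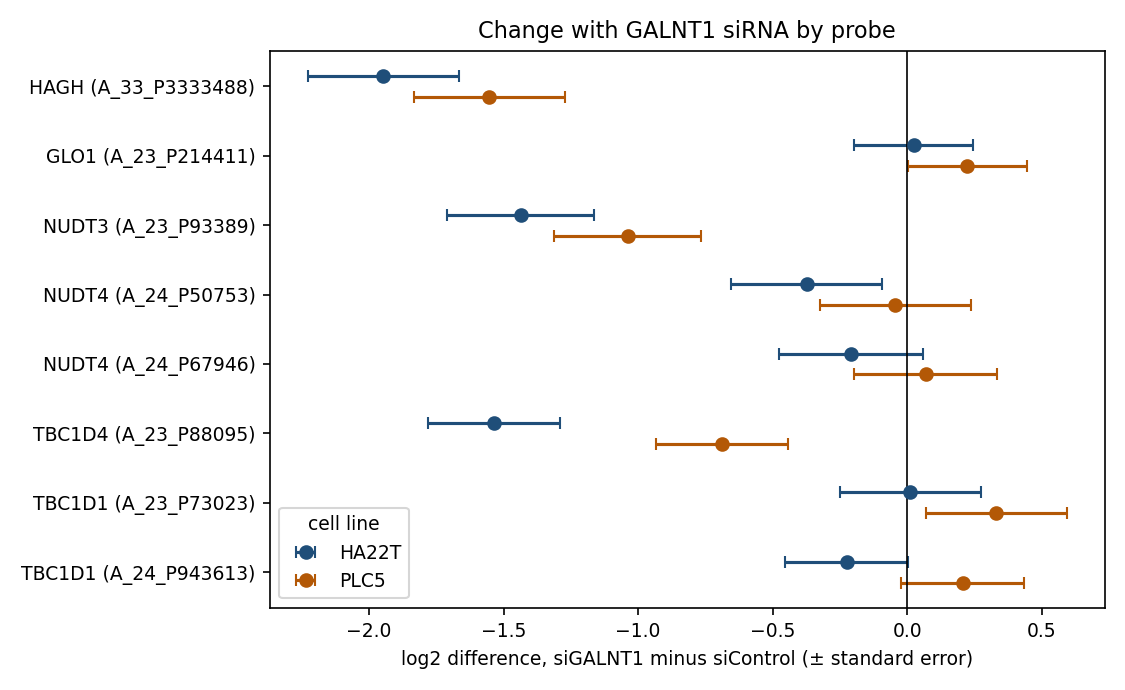
Log2 difference, siGALNT1 minus siControl, of all 8 member probes in HA22T and PLC5, with bars of ± 1 standard error of the fit. The 3 probes of HAGH, NUDT3 and TBC1D4 lie between -1.95 and -0.69, and the 5 probes of GLO1, NUDT4 and TBC1D1 between -0.37 and 0.33.

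Counted probes were those well above background on at least 3 of a line's 6 arrays. Of these, 1 of 36327 (0.00275%) passed an adjusted p of 0.05 in HA22T and 0 of 38070 (0%) in PLC5. By the limma fit in HA22T the dimmer GALNT1 probe passed (adjusted p = 0.0305) and the brighter one did not (adjusted p = 0.0708). In PLC5 neither GALNT1 probe passed, at -3.72 and -3.03, so a gene that did not pass may still have changed. In PLC5, limma gave 508 of 38070 probes (1.33%) at an unadjusted p under 0.05, and the methods' t-test also gave no adjusted call. By a fold of at least 1.5 with an unadjusted p under 0.05, the criterion of the study, 383 probes (1.05%) were lower in HA22T and 379 (0.996%) in PLC5. Lower by it in both lines were 13 of 34566 probes (0.0376%), 2 of GALNT1 and 3 of HAGH, NUDT3 and TBC1D4. The named others were SLC2A11, JAKMIP2, TTYH3, STRBP, RTN4R, TBC1D22B and OR56A1. All siGALNT1 arrays were below all siControl arrays in both lines for 37 of 29879 probes (0.124%), a count that the 3 chosen genes enter by their choice. Nearest the 1.5-fold limit in HA22T among the 13 were OR56A1 at -0.59 and TBC1D22B at -0.66.

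The pathway genes of the members were read from 5 lists: methylglyoxal and glutathione enzymes, diphosphoinositol enzymes, other nudix and decapping genes, insulin signalling to glucose transporter vesicles, and TBC-domain proteins. No list gene passed an adjusted p of 0.05 between siRNAs in either line. Of 17 methylglyoxal genes besides HAGH, the median difference was -0.20 in HA22T and 0.05 in PLC5, beside -0.06 and 0.01 over all counted probes. GCLM, the modifier subunit of the enzyme that starts glutathione synthesis, met the study's criterion in HA22T at -0.98 (SE 0.32), and its PLC5 difference was 0.01. HAGHL, a gene related to HAGH, differed by 0.02 in HA22T and -0.09 in PLC5.

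The kinases that make the substrates of NUDT3 did not pass the threshold either. IP6K1, which adds a phosphate to inositol hexakisphosphate and so forms a diphosphate, differed by -0.02 in HA22T and 0.20 in PLC5. PPIP5K2, which acts on the same molecules, differed by -0.41 and 0.19. NUDT10, another hydrolase of the family, differed by 0.26 and 0.24. Of 13 diphosphoinositol genes besides NUDT3 counted in HA22T the median was -0.08, of 14 counted in PLC5 it was 0.09, and none met the study's criterion. Of 24 other nudix and decapping genes, none met it in either line.

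Around TBC1D4, 2 of 31 other genes of the insulin list met the criterion in HA22T, RICTOR of the kinase complex mTORC2 at -0.59 (SE 0.23) and RAB8A, a Rab protein on which TBC1D4 acts, at -0.80 (SE 0.36). Their PLC5 differences were 0.46 and -0.38, and none of the 31 met the criterion there. Of the other TBC-domain genes, TBC1D22B had -0.66 (SE 0.22) in HA22T and -0.59 (SE 0.22) in PLC5, and TBCK had -0.76 and 0.08. The medians of the insulin list without TBC1D4 were -0.21 in HA22T and 0.14 in PLC5. Of 121 genes of the 5 lists counted in both lines, HAGH, NUDT3 and TBC1D4 were the only ones with -1 or less in HA22T, which they were chosen on.

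**Figure D3:**
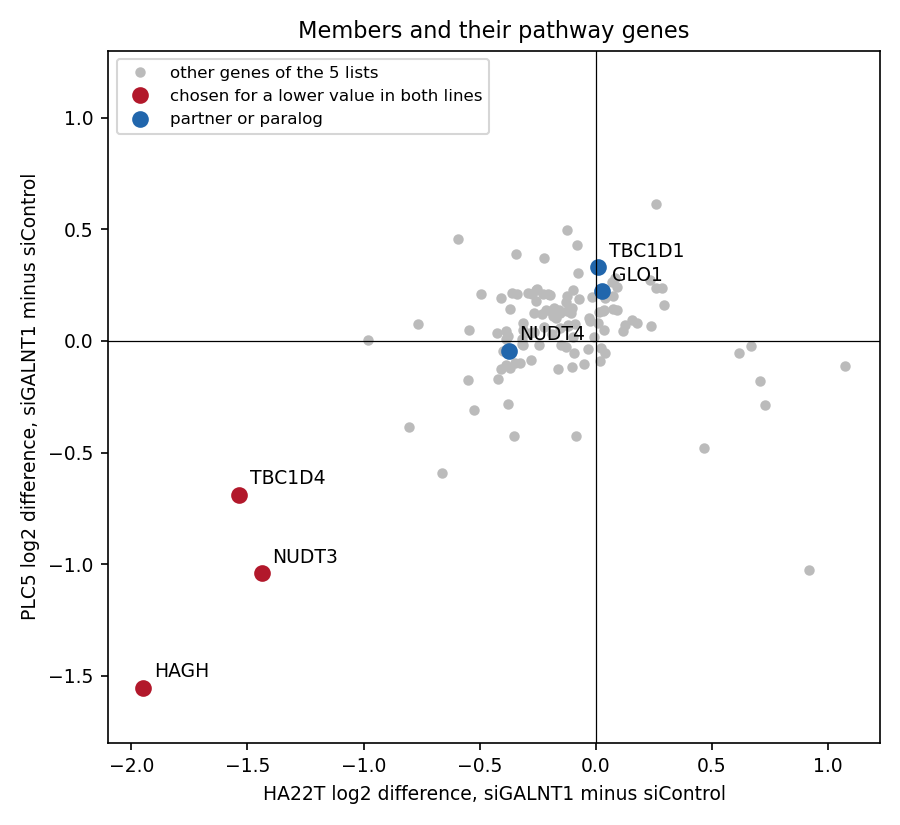
Log2 difference, siGALNT1 minus siControl, in HA22T (horizontal) against PLC5 (vertical) for the 121 genes of the 5 lists counted in both lines; each point is the brightest probe of 1 gene. HAGH, NUDT3 and TBC1D4 (red) lie at the lower left by their choice, and GLO1, NUDT4 and TBC1D1 (blue) lie among the other genes (grey).

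The difference between the lines was not used to choose any of the genes and was tested for all 6. Over both siRNAs, HAGH was higher in PLC5 by 0.90 (SE 0.20, 95% interval 0.47 to 1.34, adjusted p = 0.00403), a 1.87-fold higher signal. TBC1D4 was lower in PLC5 (log2 difference -1.23, SE 0.17, 95% interval -1.61 to -0.85, adjusted p = 0.000186), a 2.35-fold lower signal. The exact permutation test with lines exchanged within each siRNA gave p = 0.005 for each, the smallest it allows. Of the 6 genes by their brightest probe, 2 thus passed, where 36.7% of 39100 probes did, a share near that background.

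GLO1 (-0.04, 95% interval -0.38 to 0.31), NUDT3 (0.30, -0.12 to 0.72) and NUDT4 (-0.15, -0.59 to 0.28) did not pass. TBC1D1 had -0.26 (95% interval -0.67 to 0.15) by its brighter probe and -0.75 (95% interval -1.11 to -0.39, adjusted p = 0.00359) by its dimmer one, so its probes disagreed on the call. On that dimmer probe all 6 PLC5 arrays were below all 6 HA22T arrays, as were the groups of 26.5% of probes in either direction.

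With siControl alone, TBC1D4 was lower in PLC5 (log2 difference -1.66, SE 0.24, adjusted p = 0.000502). HAGH was 0.70 (SE 0.28, adjusted p = 0.0988) higher. The siGALNT1 values do not enter these log2 differences. They do enter the standard errors and p-values, which come from the fit of all groups. The siControl values are also part of the difference between siRNAs on which both genes were chosen. Of all probes, 22.5% passed in the siControl comparison of the lines. On the first slide alone, with the single PLC5 pair, HAGH was 2.15-fold higher in PLC5 over both siRNAs (adjusted p = 0.0432) and TBC1D4 was 2.18-fold lower (adjusted p = 0.0204), where each PLC5 group has 1 array and is assumed to vary like the HA22T groups. The methods' t-test, which sets 6 arrays against 6 with no siRNA term, gave HAGH an adjusted p of 0.252 over both siRNAs, and with siControl alone it gave adjusted p values of 0.0356 for HAGH and 0.0333 for TBC1D1 (log2 difference -0.42). Averaging the probes of TBC1D1 gave a siControl log2 difference of -0.69 with an adjusted p of 0.0469.

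**Figure D4:**
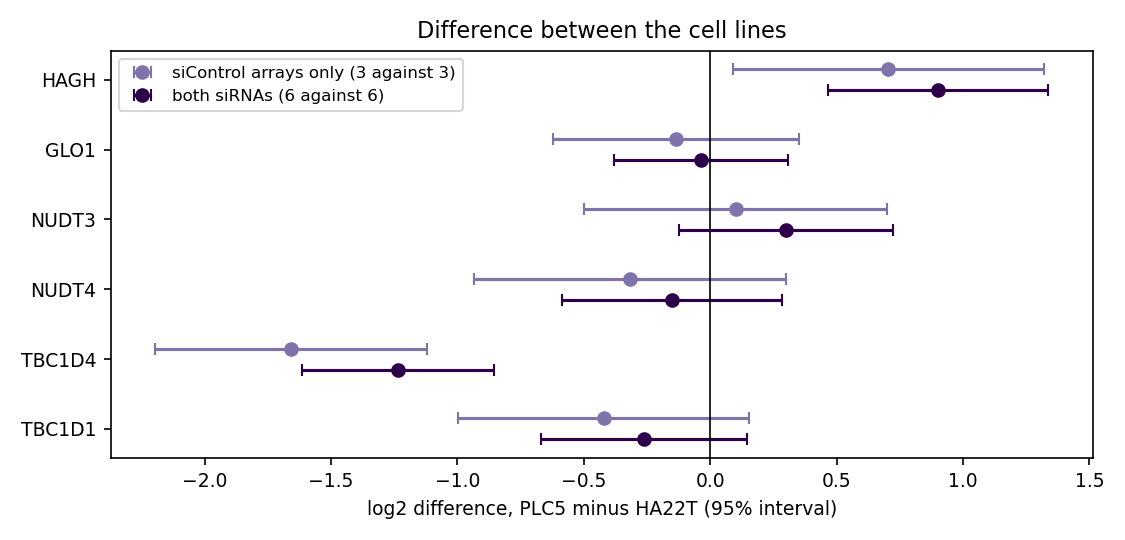
Log2 difference, PLC5 minus HA22T, of the brightest probe of each member gene, from siControl arrays alone (3 against 3) and over both siRNAs (6 against 6), with 95% intervals of the fit. The HAGH intervals lie above 0 and the TBC1D4 intervals below 0, and those of the other 4 genes include 0.

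The pathway genes were compared between the lines over both siRNAs, with up to 3 of the largest differences in each direction named for each list and with 36.7% of all probes passing. Of 18 methylglyoxal genes, 5 were higher and 3 lower in PLC5, HAGH among the former. ALDH2, the mitochondrial aldehyde dehydrogenase, was higher by 7.79, LDHD, which oxidises D-lactate, by 2.98 and the glyoxalase-domain gene GLOD5 by 0.95. ALDH2 was counted in HA22T but averaged -5.41 there with siControl, near the levels of GALNT1 probes at background, so its size is uncertain. LDHD averaged -4.42 in HA22T with siControl, below a GALNT1 reading of -4.29 that was not above background, so its size is uncertain too. The lower genes were the aldo-keto reductases AKR1B10 (-2.08) and AKR1B1 (with siControl, a level of 5.14 in HA22T and 2.94 in PLC5), and PARK7 (-0.85). Of 15 diphosphoinositol genes, 4 were higher and 4 lower, 8 in all, and 3 passed with the slide as a block. The hydrolase gene NUDT11, which was counted in PLC5 and not in HA22T, was among the higher genes and is given no size. The inositol trisphosphate kinases ITPKC and ITPKA differed by 1.34 and 1.14. ITPKC averaged -4.41 in HA22T with siControl, a level like that of LDHD, so its size is uncertain. The lower genes included IPPK (-1.11), PPIP5K2 (-0.89) and IPMK (-0.79), all kinases of the inositol phosphate route.

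Of 24 other nudix and decapping genes, 5 were higher and 8 lower in PLC5, with NUDT7, a peroxisomal coenzyme A hydrolase, higher by 5.02, NUDT9 by 1.79 and NUDT22 by 1.63. NUDT7 averaged -5.96 in HA22T with siControl, also near background, so its size is uncertain. Lower were XRN1, the exonuclease that degrades decapped mRNA (-2.08), NUDT16 (-1.73) and NUDT2 (-1.25). Of 33 insulin genes, 3 were higher and 11 lower, TBC1D4 among the latter, and 6 of the list passed with the slide as a block. INSR, the insulin receptor, was higher by 2.22 and the kinase PDPK1 by 1.46, as was SLC2A4, the insulin-responsive glucose transporter, while the lipid kinase subunit PIK3CA (-1.65) and the Rab protein RAB14 were lower. SLC2A4 was counted in PLC5 and not in HA22T, and RAB14 in HA22T and not in PLC5, so neither is given a size. Of 38 TBC-domain genes, 9 were higher and 13 lower, with GRTP1 at 3.51, USP6NL at 1.65 and TBC1D8B, counted in PLC5 alone and given no size, among the higher, and with TBC1D2 at -3.11, TBC1D31 at -1.95 and TBC1D19 at -1.95. TBC1D4 at -1.23 was thus within the range of its family.

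By group mean, HAGH levels went up in the order HA22T siGALNT1, PLC5 siGALNT1, HA22T siControl, PLC5 siControl, and no neighbours in that order overlapped. The siControl groups of the lines did not overlap for 42.6% of probes, and HAGH was chosen on the difference between siRNAs. NUDT3 had the same order as HAGH, with overlap within each siRNA. TBC1D4 was lowest in PLC5 siGALNT1 and highest in HA22T siControl, with the PLC5 siControl and HA22T siGALNT1 groups overlapping between them. GLO1 and the brighter probes of NUDT4 and TBC1D1 had overlapping neighbours throughout.

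Over the 6 arrays of each line, HAGH and NUDT3 correlated at 0.88 in HA22T and 0.99 in PLC5, and HAGH and TBC1D4 at 0.95 and 0.93. These points share the 2 siRNA groups on which the genes were chosen, and the values describe only that. HAGH and GLO1 correlated at -0.06 in HA22T and -0.67 in PLC5, NUDT3 and NUDT4 at 0.78 and 0.29, and TBC1D4 and TBC1D1 at -0.00 and -0.26. Ranked by the lower of both within-line correlations over 11848 genes, the genes most like HAGH were MALSU1 (0.98 and 0.97), RTN4R (0.93 and 0.98) and TBC1D4. Those most like NUDT3 were TBC1D4, HAGH and JOSD2 (0.88 and 0.93), and those most like TBC1D4 were TTYH3 (0.95 and 0.95), RTN4R (0.96 and 0.94) and EPHB4 (0.94 and 0.93).

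Genes beside the chosen ones on the chromosome, picked after their values were seen, did not pass the threshold. Beside HAGH, FAHD1 differed by -0.42 in HA22T and -0.05 in PLC5, and NUBP2, above background on 7 of 12 arrays, by -0.86 and -0.04. Beside NUDT3, RPS10 differed by -0.52 and 0.03, PACSIN1 by -0.72 and -0.27 and SMIM29, above background on 7 arrays, by 1.28 and -0.13. COMMD6, next to TBC1D4, differed by -0.10 and 0.11.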

How the data were processed

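RNA of HA22T and PLC5 cells with siControl or siGALNT1 was hybridised to 12 arrays. The authors labelled cDNA, scanned the arrays and quantified spots with Agilent Feature Extraction 10.5.1.1 (named in the submitters' processing notes), and the deposited intensity values are its background-subtracted processed signals. The authors also deposited log2 values per probe, whose columns have their 75th percentile near 0; they served as an alternative. From the intensities, log2 values minus each array's 75th percentile were computed here, after which non-uniform spots were dropped and replicate spots averaged per probe. Probes were named through RefSeq transcripts (28174 of 50599 matched 1 symbol), and each gene is represented by the brightest of its probes. One limma model (version 3.58.1, R 4.3.3, lmFit then eBayes) held the 4 groups, a design chosen here because the paper's methods do not say which of their tests served the arrays. Benjamini-Hochberg adjustment ran over all probes above background on at least 3 of 6 arrays of a line, at a threshold of 0.05. The script was tested on simulated data. The members and lists were chosen with earlier results of these data known. Named genes were the members, list genes that met the criterion between siRNAs, the 3 list genes with the largest differences between lines in each direction (1 of them is not reported here), and the 3 genes most like each chosen member, and other list genes were picked after their values were seen. Same-numbered arrays deviated together in every HA22T pair (correlations 0.55, 0.40 and 0.43). They did not in every PLC5 pair (0.71, -0.02 and 0.16), so PLC5 was not taken as paired. The main fit and the permutation tests held no pair term for HA22T either, so its standard errors, intervals and p-values do not use the pairs. The pairing in HA22T comes from the values, since the labels give only numbers. Arrays hold no counts, and their number limits the precision. The alternatives were normexp background correction on the median spot signal (offset 50), quantile and median scaling, the deposited table, other filters, slide or replicate number as a block, each line alone, a trend in eBayes, the methods' t-test, the mean over probes and each array left out.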

Additional observations from a re-analysis of the deposited data

How the results depend on the processing

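Normexp correction gave a NUDT3 difference in HA22T of -1.04, TBC1D1 of -0.077, GALNT1 of -4.26 and, in PLC5, GALNT1 of -3.38, with 3 probes passing an adjusted p of 0.05 in HA22T and 2 in PLC5. Small differences changed sign: with median scaling GLO1 in HA22T was -0.037, TBC1D1 -0.051 and the siControl line difference of NUDT3 -0.0049, with the deposited table TBC1D1 was -0.0040, and with the percentile over unflagged spots, added after seeing the data, the NUDT3 line difference was -0.0076. Averaging the probes of each gene gave TBC1D1 -0.11 and GALNT1 -4.93 in HA22T, NUDT4 0.012 in PLC5, and a TBC1D1 line difference over both siRNAs of -0.51 that passed. A trend in eBayes gave GALNT1 -5.10 (1 of the 3 siGALNT1 arrays at background) with 3 probes passing in HA22T, and a filter on all 6 arrays, the slide as a block or each line alone gave 0. Replicate number as a block was entered for both lines, although PLC5 was not taken as paired, so it does not model the HA22T pairs alone. It gave 0 probes passing in HA22T and changed no call of a member. The adjusted p of GLO1, NUDT4 and TBC1D1 between siRNAs stayed above 0.05. With the slide as a block 3 diphosphoinositol and 6 insulin genes passed between the lines. The methods' t-test left the HAGH line difference at 0.90 and took its adjusted p to 0.252. Leaving out 1 array, the HA22T differences ranged from -0.10 to 0.12 for GLO1, -0.21 to 0.22 for TBC1D1 and -5.59 to -4.39 for GALNT1, the PLC5 differences from -0.24 to 0.074 for NUDT4 and -0.83 to -0.46 for TBC1D4, the GLO1 line difference from -0.10 to 0.013, and the number of probes passing in HA22T from 0 to 2. HAGH, NUDT3 and TBC1D4 had lower values with siGALNT1 in both lines under every alternative run. The alternatives reuse the arrays that these genes were chosen on, so this does not test their differences. The percentile over unflagged spots moved the median of all probes in the line difference over both siRNAs from -0.09 to -0.26. Probes lower by the study's criterion numbered 383 in HA22T, with 134 to 854 over the alternatives and 192 to 1326 with 1 array left out, and 379 in PLC5, with 101 to 555 and 182 to 1239. Why these values moved was not tested. The number of arrays, 3 a group, limits what the fit can show.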
